A study of Mus musculus with 6 samples.

Results

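Integrins are adhesion receptors made of an alpha chain paired with a beta chain, and 10 genes for such chains are described here in cells washed from the mouse airspace. They were chosen by name: Itgb2 with its alpha partners Itgax (CD11c), Itgam (CD11b) and Itgal (CD11a), and Itgb1, Itgb5, Itgb7, Itgb8, Itga4 and Itgav. All 10 had a row, among 48795 gene rows in the table. Leukocyte beta 2 integrins bind intercellular adhesion molecules and complement fragments and serve in adhesion and uptake of particles. Alveolar macrophages of the mouse are known for high CD11c and low CD11b at rest, whereas monocytes and neutrophils carry CD11b. Alpha V integrins bind matrix proteins such as vitronectin and fibronectin, and some of them release active TGF-beta from its latent complex.

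Male and female wild-type C57BL/6 mice, 8 to 12 weeks old, received intratracheal saline or cadmium chloride (100 ng/kg), and their lungs were lavaged on day 7. RNA of the recovered cells was sequenced in 6 libraries titled CD178, CD177, CD176, CD174, CD171 and CD170; these titles have nothing to do with CD antigens. The labels used here give no library an exposure or a sex, so no groups were compared and each library is described on its own. The sources used here do not say whether each library is a separate animal.

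Gene counts ran from 7732244 in CD174 to 23599369 in CD178. The fixed alveolar macrophage markers, 10 of 10 with counts, summed to 26948 to 33473 CPM (CPM, read counts relative to a scaled library size). Summed markers of recruited monocytes (5 genes) reached 11.8 to 22.3 CPM, of neutrophils (8 genes) 61.6 to 102.2 CPM, of dendritic cells (6 genes) 9.38 to 20.5 CPM and of T cells (7 genes) 4.40 to 8.79 CPM. Ccr2 made up nearly all of the monocyte sum (10.5 to 22.2 CPM), with Ly6c2 at most at 0.149 CPM. Csf3r (23.2 to 41.8 CPM) and Mmp8 (18.2 to 43.2 CPM) made up most of the neutrophil sum. S100a8 lay at 5.62 to 13.8 CPM, highest in CD174, and Cxcr2 at 3.61 to 8.83 CPM, with Ly6g at 0 counts and S100a9, Ngp and Camp at most at 0.523 CPM. NK cell markers reached at most 0.196 CPM with Klrb1c and Nkg7 at 0, B cell markers 1.04 CPM, platelet markers 2.81 CPM with Ppbp and Gp9 at 0, and mast cell and eosinophil markers 0.698 CPM with Mcpt4, Fcer1a and Ms4a2 at 0. CD174 stood apart, with epithelium markers (9 genes) at 3225 CPM against 371.5 to 717.5 CPM elsewhere. Sftpc (1602 CPM) and Scgb1a1 (963.3 CPM) made up most of the CD174 sum. Epcam (168.0 to 229.2 CPM) and Cdh1 (70.9 to 85.3 CPM) varied little over the libraries and made up a large part of the sum elsewhere. CD174 also had 25.0% of all reads outside annotated features against 6.49 to 16.6%. Summed endothelium and mesenchyme markers (7 genes) lay between 1.43 and 16.98 CPM, highest in CD174, where Kdr alone gave 9.53 CPM. Col1a1 and Col1a2 were also highest in CD174, whereas Pecam1, Cdh5, Col3a1 and Dcn were each highest in another library. Red cell genes (5 genes) lay between 111.2 CPM in CD177 and 2882 CPM in CD170. In bulk RNA, fewer cells of a type and less RNA per cell cannot be told apart.

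The sequences shown first are those before the neighbouring genes Itgam and Itgax, whose levels differed the most among the CD11 chains. On chromosome 7 of GRCm38, plus strand, Itgal (ENSMUSG00000030830) lies at 127296260 to 127335138, Itgam (ENSMUSG00000030786) at 128062640 to 128118491 and Itgax (ENSMUSG00000030789) at 128129547 to 128150657. Only 11055 bases separate the annotated end of Itgam from the start of Itgax, and Itgad, a further beta 2 partner, follows after 3718 bases. The 250 bases before each RefSeq start (build GRCm38.p6, plus strand) are chr7:128062390-128062639 for Itgam and chr7:128129300-128129549 for Itgax. Capitals mark the letters GAGGAA, a core bound by the myeloid factor PU.1, and TGANTCA, an AP-1 site, on either strand.
Itgam: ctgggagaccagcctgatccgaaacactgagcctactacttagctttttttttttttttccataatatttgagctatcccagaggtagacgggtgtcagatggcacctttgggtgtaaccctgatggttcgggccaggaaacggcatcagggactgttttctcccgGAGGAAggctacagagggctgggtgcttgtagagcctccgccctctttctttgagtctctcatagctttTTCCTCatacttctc
Itgax: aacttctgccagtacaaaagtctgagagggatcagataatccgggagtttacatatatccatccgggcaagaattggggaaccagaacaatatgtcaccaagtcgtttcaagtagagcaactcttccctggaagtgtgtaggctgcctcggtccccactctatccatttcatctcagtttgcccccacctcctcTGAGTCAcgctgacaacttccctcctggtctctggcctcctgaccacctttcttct

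The Itgam window held GAGGAA on the plus strand, starting 84 bases before the start, and its reverse complement TTCCTC, starting 15 bases before it. The Itgax window held no GAGGAA on either strand and 1 AP-1 match, TGAGTCA, starting 56 bases before the start. GAGGAA was present in 23.3% and TGANTCA in 6.75% of the 32851 RefSeq windows of the same length. The promoter table had 8 of the 10 chains, and GAGGAA was found in 3 of them, Itgam, Itgav and Itgb1. These matches describe letters in a window and say nothing of binding or of level. Only exact matches to the letters given were counted, so a shorter or variant site would not be marked.

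Itgb2, the beta chain CD18 shared by the CD11 chains (ENSMUSG00000000290, chromosome 10, 77530252 to 77565708), was the most abundant of the 10. It was at 2203 CPM in CD170, 2052 in CD177, 1954 in CD176, 1874 in CD178, 1798 in CD174 and 1745 in CD171. The highest library exceeded the lowest by 1.26-fold, the narrowest range among the chains past the count filter (10 counts in at least 3 libraries).

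Itgax reached 1390 CPM in CD170, then 1186 in CD171, 1129 in CD176, 1119 in CD178, 1078 in CD177 and 978.8 in CD174. CD170 was the highest and CD174 the lowest, a ratio of 1.42, and the other 4 libraries lay within 1078 to 1186 CPM. Itgal, which with Itgb2 forms the lymphocyte function antigen LFA-1, was at 641.8 CPM in CD170, 514.3 in CD177, 510.6 in CD171, 483.7 in CD178, 477.4 in CD174 and 465.4 in CD176. CD170 was the highest, and the other 5 libraries lay within 465.4 to 514.3 CPM.

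Itgam was close to the limit of detection. It had 12 counts in CD170 (0.637 CPM, exact 95% Poisson interval 0.329 to 1.11), 12 in CD171 (0.926 CPM), 3 in CD174 (0.447 CPM), 16 in CD176 (1.05 CPM, 0.597 to 1.70), 9 in CD177 (0.439 CPM) and 65 in CD178 (2.67 CPM, 2.06 to 3.40). CD178 lay above the interval of each of the others. The log2 range of 2.31 became 1.04 without CD178, below those of Itgb7 (1.79), Itga4 (1.46) and Itgav (1.46) over the same 5 libraries. CD178 also had the highest dendritic cell marker sum, at 20.5 CPM, of which Ccr7 alone gave 12.6 CPM. Flt3, Zbtb46, Xcr1, Cd209a and Clec9a were each highest in another library. Summed monocyte markers (17.3 CPM, mostly Ccr2) and neutrophil markers (73.1 CPM, mostly Csf3r and Mmp8) in CD178 lay within the range of the other libraries. The part of these cells in the result was not tested. These intervals hold counting error alone, because PCR copies of a molecule cannot be recognised in the counts.

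The way reads were assigned bears on Itgam. A neighbouring read-through gene with a row of its own, Gm49368, covers 68.7% of the 5024 exon bases of Itgam on the same strand in GENCODE M21, and reads there would count as ambiguous for whichever gene they came from. Gm49368 itself had at most 1 count in any library. Over the 1574 exon bases of Itgam alone, of which 1232 belong to its longest transcript, the level was 0.279 to 1.70 CPM per kilobase, with a median of 0.496. Itgax, with no overlapped exon base, had 203.8 to 289.5 CPM per kilobase, so that its lowest library exceeded the highest Itgam library by 120.2-fold on that length. With all exon bases as the length, the medians differed by 1505-fold, and with the bases of Itgam alone by 471.5-fold.

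Among the reads of Itgax, Itgal and Itgam together, Itgax took 68.4% (95% Wilson interval 67.9 to 68.9) in CD170, 69.9% (69.3 to 70.5) in CD171, 67.2% (66.3 to 68.1) in CD174, 70.8% (70.2 to 71.3) in CD176, 67.7% (67.2 to 68.2) in CD177 and 69.7% (69.3 to 70.2) in CD178. Itgam took 0.0276% in CD177 to 0.166% in CD178. Per kilobase of exon, the Itgax share was 73.7% in CD174 to 76.8% in CD176, with a median of 75.3%, or 69.6% with coding lengths. These shares do not depend on how libraries are scaled, and they differed by a few percentage points while the intervals of counting error were narrower than 2 points each.

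The 3 CD11 chains together came to 0.489 times Itgb2 by median, on the scale of CPM per kilobase of exon. The ratio was 0.568 in CD171, 0.537 in CD170, 0.50 in CD178, 0.478 in CD176, 0.469 in CD174 and 0.450 in CD177. Itgb2 was thus above the sum of its CD11 partners in each of the 6 libraries; with longest transcript or coding lengths the median ratio was 0.573 or 0.547. Itgad added 2.21 to 4.21 CPM per kilobase and does not change that order. Of the distinct 50-base stretches in Itgax transcripts, 8.02% also occur in Itgad, and reads lying wholly within them may not have been assigned to either gene. The length of 50 bases was a setting of the search.

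**Figure D1:**
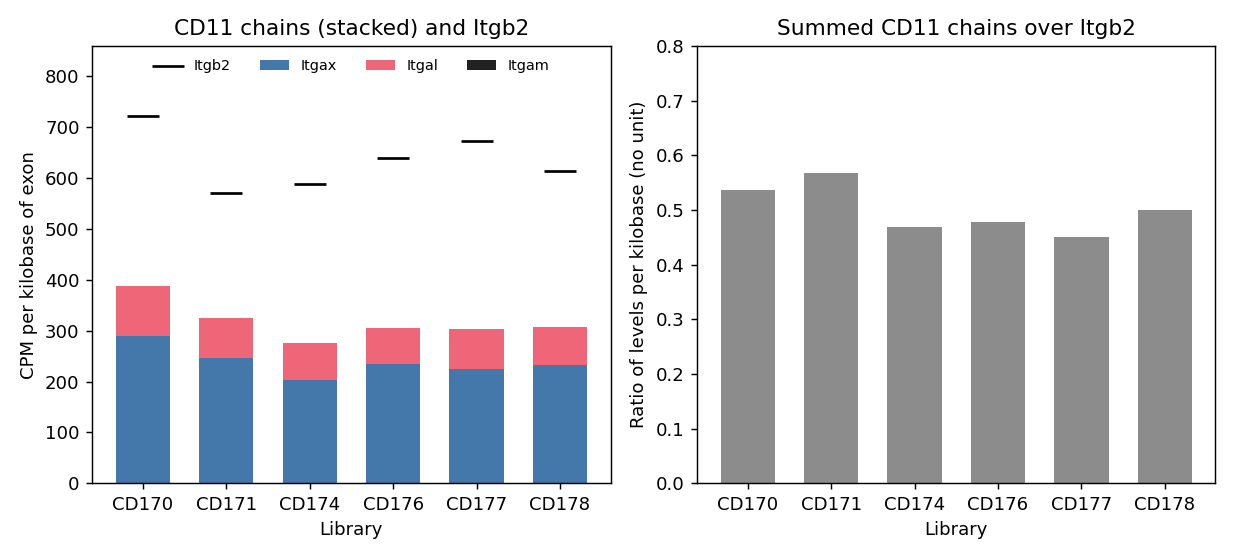
CD11 chains and Itgb2 by library. Left, stacked bars give CPM per kilobase of exon of Itgax, Itgal and Itgam and dashes give Itgb2; right, the ratio of the summed CD11 chains to Itgb2. Itgam is too low to be seen beside the others, and the ratio lies between 0.450 in CD177 and 0.568 in CD171.

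Itgb1, the beta chain of fibronectin, laminin and collagen receptors (ENSMUSG00000025809, chromosome 8, 128685654 to 128733200), was the second beta chain by level. It was at 696.8 CPM in CD170, 673.1 in CD177, 640.7 in CD178, 579.9 in CD176, 575.3 in CD171 and 508.1 in CD174. CD174 was the lowest library, and the ratio of highest to lowest was 1.37. Itgb2 exceeded Itgb1 by 3.91-fold to 4.73-fold per kilobase of exon.

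Itga4, which pairs with Itgb1 to form the receptor VLA-4 for VCAM1 and fibronectin and with Itgb7 to form the gut homing receptor (ENSMUSG00000027009, chromosome 2, 79255426 to 79333123), varied more. Its level was 88.6 CPM in CD177, 79.1 in CD178, 74.4 in CD170, 65.3 in CD171, 60.2 in CD176 and only 31.9 in CD174. CD174 lay well under the other 5 libraries, and CD177 lay above them, its 95% Poisson interval of 84.6 to 92.8 CPM being clear of theirs. The log2 range was 1.47 with all libraries and 0.56 without CD174. As 8.04% of its exon bases are also exon of Cerkl on the opposite strand, and the strand setting is not given in the sources used here, a small part of its reads may be uncounted.

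Itgb7, the other partner of Itga4 and also of Itgae (ENSMUSG00000001281, chromosome 15, 102215995 to 102231944, minus strand), was low. It had 56 counts in CD170 (2.97 CPM), 16 in CD171 (1.23 CPM, 0.706 to 2.01), 31 in CD174 (4.62 CPM, 3.14 to 6.55), 52 in CD176 (3.40 CPM), 62 in CD177 (3.03 CPM) and 79 in CD178 (3.24 CPM). CD171 was the lowest and the other 5 had overlapping intervals. The log2 range of 1.80 became 0.62 without CD171. T cell markers, which mark cells known to carry Itgb7, had a sum of 8.79 CPM in CD174 and 7.49 CPM in CD171 against 4.40 to 6.16 CPM elsewhere. The markers differed in direction: in CD174, Trac (4.32 CPM) and Cd3g (2.68 CPM) made up most of the sum, whereas Il7r and Cd4 had 0 counts. The part of T cells in the Itgb7 level was not tested.

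Itgav, the alpha chain of vitronectin receptors (ENSMUSG00000027087, chromosome 2, 83724397 to 83806916), was at 67.0 CPM in CD174, 57.2 in CD170, 44.6 in CD177, 41.4 in CD178, 40.3 in CD176 and 24.3 in CD171. CD171 lay below the others and CD174 above them, and CD176, CD177 and CD178 were within 40.3 to 44.6 CPM. As 5.90% of its exon bases are also exon of Gm13684 on the opposite strand, a small part of its reads may be uncounted. The log2 range was 1.46 with all libraries, 0.74 without CD171, and 0.51 without CD171 and CD174. The highest library, CD174, was also highest for the summed epithelium markers, at 3225 CPM, mostly Sftpc and Scgb1a1. The part of epithelial RNA in the Itgav level was not tested.

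Itgb5, which pairs with Itgav in a vitronectin receptor (ENSMUSG00000022817, chromosome 16, 33829665 to 33949338), stood at 367.6 CPM in CD170, 358.3 in CD174, 320.0 in CD171, 298.3 in CD176, 264.0 in CD178 and 258.1 in CD177. CD170 and CD174 were highest and CD177 and CD178 lowest. Its order across libraries differed from that of Itgb1. The ratio of Itgb1 to Itgb5 per kilobase, which is free of library scaling, was 2.27 in CD177, 2.11 in CD178, 1.69 in CD176, 1.65 in CD170, 1.57 in CD171 and 1.23 in CD174. Itgb5 exceeded Itgav by 16.2-fold to 22.4-fold per kilobase of exon in 5 libraries and by 39.8-fold in CD171. Itgav has 10744 exon but 3132 coding bases, and Itgb5 has 3553 and 2448, so these folds would be smaller with coding lengths. Of the distinct 50-base stretches in Itgb5 transcripts, 7.26% also occur in Gm38317.

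Itgb8, which pairs with Itgav in a receptor that releases active TGF-beta (ENSMUSG00000025321, chromosome 12, 119158022 to 119238802, minus strand), was the only one of the 10 that did not pass the count filter. It had 21 counts in CD170 (1.11 CPM, 0.690 to 1.70), 11 in CD177 (0.537 CPM, 0.268 to 0.960), 4 in CD178, 1 in CD176, and 0 in both CD171 and CD174. A count of 0 allows a level of up to 3 counts (a one-sided 95% limit), which is 0.232 CPM in CD171 and 0.447 CPM in CD174. The CD170 interval lay above both of these limits and above the intervals of CD176 and CD178, and it overlapped that of CD177. In CD174, the shallowest library, a low level could go undetected.

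**Figure D2:**
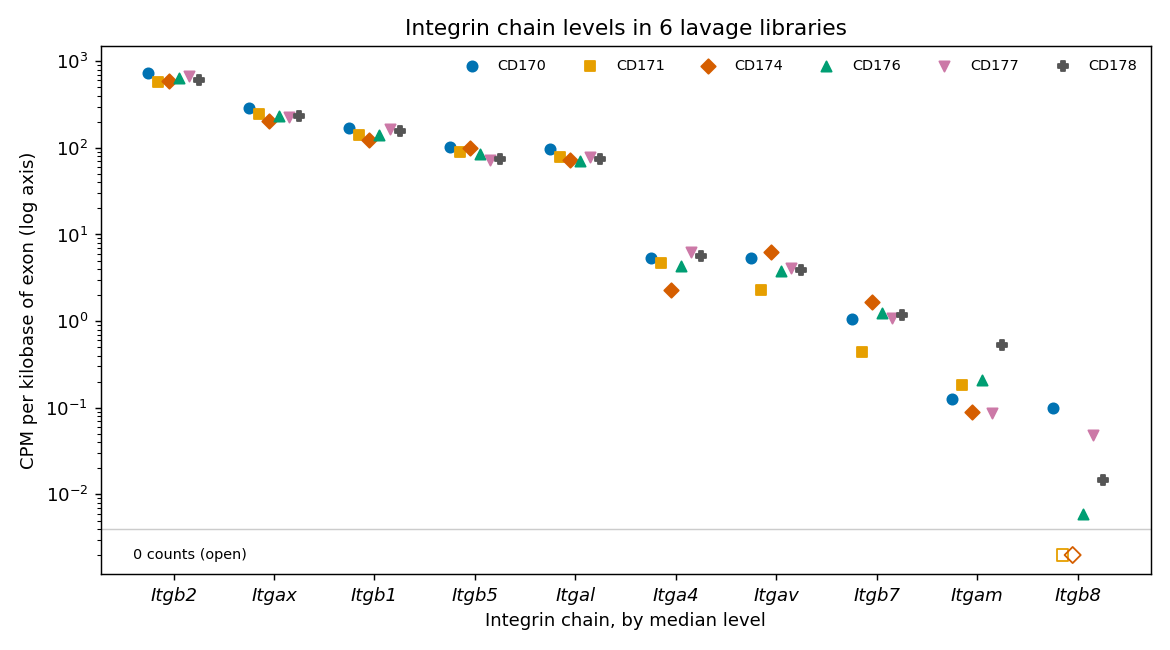
CPM per kilobase of exon of the 10 chains on a log axis, 1 symbol per library, ordered by median. Filled symbols are measured levels and open symbols at the bottom are libraries with 0 counts; 5 chains lie above 70 CPM per kilobase in all 6 libraries, and Itgb8 lies at or below 0.101.

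Set side by side per kilobase of exon, the order of median levels was Itgb2 (627.0 CPM per kilobase), Itgax (234.1), Itgb1 (149.5), Itgb5 (87.0), Itgal (75.7), Itga4 (5.0), Itgav (4.0), Itgb7 (1.13), Itgam (0.156) and Itgb8 (0.0104). Ranges over libraries did not overlap between Itgb2 and Itgax, Itgax and Itgb1, Itgb1 and Itgb5, Itgal and Itga4, or Itgav and Itgb7. They overlapped between Itgb5 and Itgal, where Itgb5 was higher in 5 of 6 libraries, and between Itga4 and Itgav, where Itga4 was higher in 4 of 6. The order of Itgb5 and Itgal rests on the length used. Itgal has 6569 exon and 3603 coding bases, and Itgb5 has 3553 and 2448. With coding lengths, Itgal would have the higher median. Itgb7 exceeded Itgam, and Itgam exceeded Itgb8, in 6 of 6 libraries although their ranges overlapped. With the exon bases of Itgam alone as its length, a setting added after seeing the data, Itgb7 was higher in only 4 of 6: Itgam was at 1.70 against 1.17 CPM per kilobase in CD178 and at 0.588 against 0.446 in CD171. Per kilobase of all exon bases, the gap between Itgal and Itga4, at 15.1-fold, was the largest between neighbours both of which passed the filter. Itga4 has 13978 exon bases but only 3096 coding bases. With coding lengths, Itga4 would lie nearer to the chains above it, and the gap between Itgav and Itgb7 would be the largest.

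Of the 9 chains past the filter, 4 had a log2 range of at least 1 across the libraries, Itgam, Itgb7, Itga4 and Itgav, beside 50.5% of the 12627 genes past the filter. Without CD171 the count was 2, but the share over all genes was not computed for that setting, so the drop cannot be read as particular to the chains. The median log2 range of the 9 was 0.51 beside 1.01 over all filtered genes. Among the 7 chains with a median of at least 10 CPM, 2 had such a range (Itga4 and Itgav), beside 28.9% of 8297 genes at that level, and both chains under 10 CPM did, beside 91.8% of genes at that low level. Neither share is far from its background. Without CD171 and CD174, only Itgam did, beside 16.9% of all genes tested. Library CD170 was the highest for 5 of the 7, Itgax, Itgal, Itgb2, Itgb1 and Itgb5, beside 17.2% of genes at that level; with DESeq2 size factors Itgb5 and with total counts Itgb1 was highest in another library. CD170 was also the highest library for red cell markers, whose part was not tested. The summed CPM of the 10 chains was 5436 in CD170 and 4225 to 4713 in the others.

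**Figure D3:**
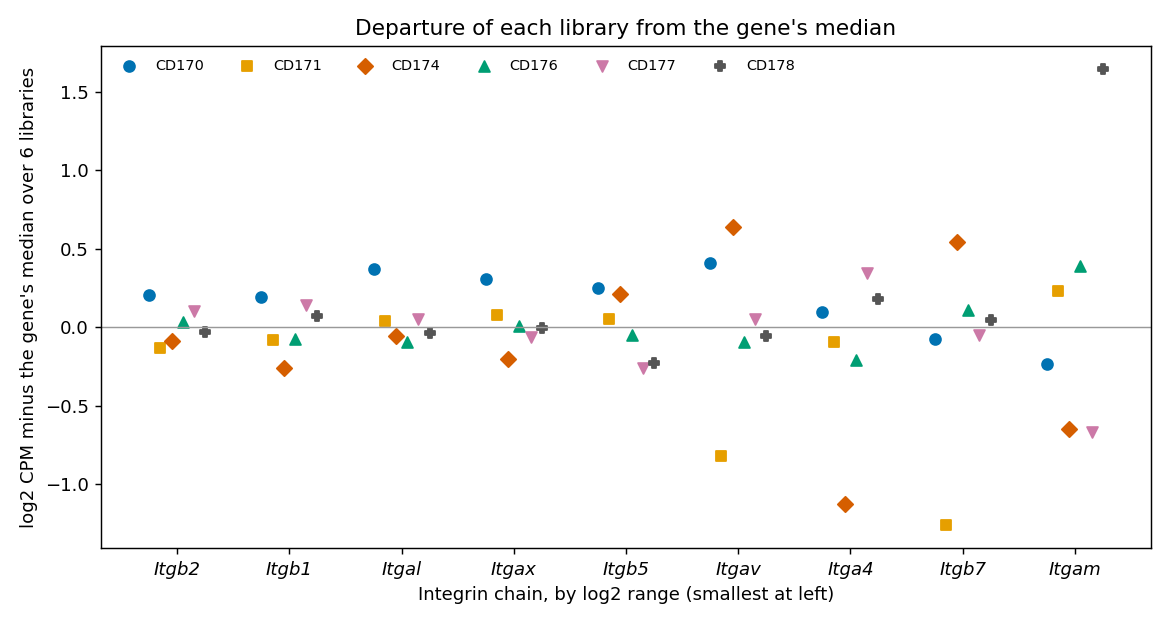
Departure of each library from the gene's median over the 6 libraries, in log2 CPM, for the 9 chains past the filter, ordered by log2 range. The 5 chains at the left have ranges of 0.34 to 0.51; CD171 is lowest for Itgav and Itgb7, CD174 lowest for Itga4 and CD178 highest for Itgam.

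The patterns most like those of Itgax and Itgb2 were sought among genes with a median of at least 10 CPM, by the mean absolute difference of centred log2 CPM over the 6 libraries. For Itgax they were Tmem94 (0.020), Itpk1 (0.030) and Dcps (0.031), and for Itgb2 Pitrm1 (0.019), Nr1h2 (0.026) and Zadh2 (0.026). For Itgam, which had the largest log2 range among the chains past the filter, the nearest were Ephx1 (0.39), Prrg2 (0.40) and Gpatch4 (0.40). These distances were larger than those for Itgax and Itgb2. Itgam had 3 to 16 counts in 5 libraries and 65 in CD178, and the part of counting error in its distances was not tested. With 8297 genes and 6 libraries, close patterns for chains of small range are common, and they are given as a description.

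Of 17 other integrin chains, 7 passed the filter. Itga5, the alpha chain of the classical fibronectin receptor, was the most abundant of them at 103.7 to 121.1 CPM, and Itga6, of laminin receptors, lay at 25.2 to 30.1 CPM, with log2 ranges of 0.22 and 0.26. Itgad lay at 9.98 to 18.99 CPM and Itga1, of collagen receptors, at 5.33 to 10.4 CPM. Itgae (CD103) ranged from 1.64 to 6.88 CPM, Itga9 from 0 counts in CD170 to 5.36 CPM in CD174, and Itga10 from 0 to 0.849 CPM. The 10 not past the filter, among them the TGF-beta releasing chain Itgb6 and the platelet chains Itgb3 and Itga2b (named after their values were seen), reached at most 1.07 CPM, and 1 of them had 0 counts in each library. The 10 chains described held 97.2 to 97.8% of the summed level of all 27 per kilobase of exon. Per kilobase of exon, Itga5 exceeded Itga4 by 3.58-fold to 5.70-fold in 5 libraries and by 10.7-fold in CD174, and Itgb1 exceeded the sum of its 12 alpha partners by 3.32-fold to 4.51-fold. Itga4 has 13978 exon but 3096 coding bases, and Itga5 has 4933 and 3159. With coding lengths, the excess of Itga5 over Itga4 would be much smaller.

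Of the 32 genes that activate integrins or link them to actin, 22 had a median of at least 10 CPM, and the log2 range reached 1 in 0 of these, beside 28.9% of all genes at that level. The filamin gene Flna lay at 1460 to 2069 CPM, Rap1b, a small GTPase of integrin activation, at 584.9 to 766.3 CPM, and Syk, a kinase downstream of integrins, at 417.0 to 576.6 CPM. Genes named after their values were seen were Tln1 and Fermt3, which encode talin and the kindlin of blood cells, at 391.5 to 634.0 and 217.6 to 341.1 CPM. The 8 genes of the list with a median under 10 CPM that passed the filter all had a log2 range of at least 1, a share near the 91.8% of all genes at that low level. Ilk, the integrin-linked kinase, also named after its values were seen, had at most 2 counts in any library. Exons of Taf10 and Rrp8 on the opposite strand cover 89.7% of its exon bases, so its level cannot be read from this table.

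Of 22 genes for integrin ligands and for the latent TGF-beta complex, 12 passed the filter. Of these, 5 had a log2 range of at least 1, beside 50.5% of all genes past the filter. With a median of at least 10 CPM, 2 of 9 did (Fn1 and Spp1), beside 28.9%, and 3 of 3 lower ones did, beside 91.8%. The count of 5 ligands became 3 without any one of CD171, CD174 and CD176, where the share over all genes was not computed. The most abundant were Fn1, fibronectin, at 482.8 CPM in CD171 to 1258 CPM in CD178, Tgfb1 at 421.3 to 560.9 CPM and Spp1, osteopontin, at 292.3 to 588.6 CPM. CD171 was the lowest library for Fn1 and Spp1. The share of all genes lowest in CD171 was not computed, so this cannot be read as particular to these ligands. Named after their values were seen, Nrros, which tethers latent TGF-beta on myeloid cells, lay at 142.6 to 186.3 CPM, whereas Lrrc32, its counterpart on regulatory T cells, had at most 1 count in a library and Vtn, vitronectin, 0. Icam1, a ligand of the Itgal and Itgb2 pair and likewise named after its values were seen, lay at 68.2 to 121.1 CPM. Of 11 integrin-associated membrane proteins, 11 passed the filter and 1, Cd151, had a log2 range of at least 1 (1.09), beside 28.9% of all genes with a median of at least 10 CPM; it was named after its values were seen, and the count is 0 without CD171 or without CD174. Cd9, a tetraspanin, lay at 2558 to 3713 CPM, Cd47 at 738.7 to 919.3 CPM and Cd53 at 501.7 to 777.5 CPM.

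**Figure D4:**
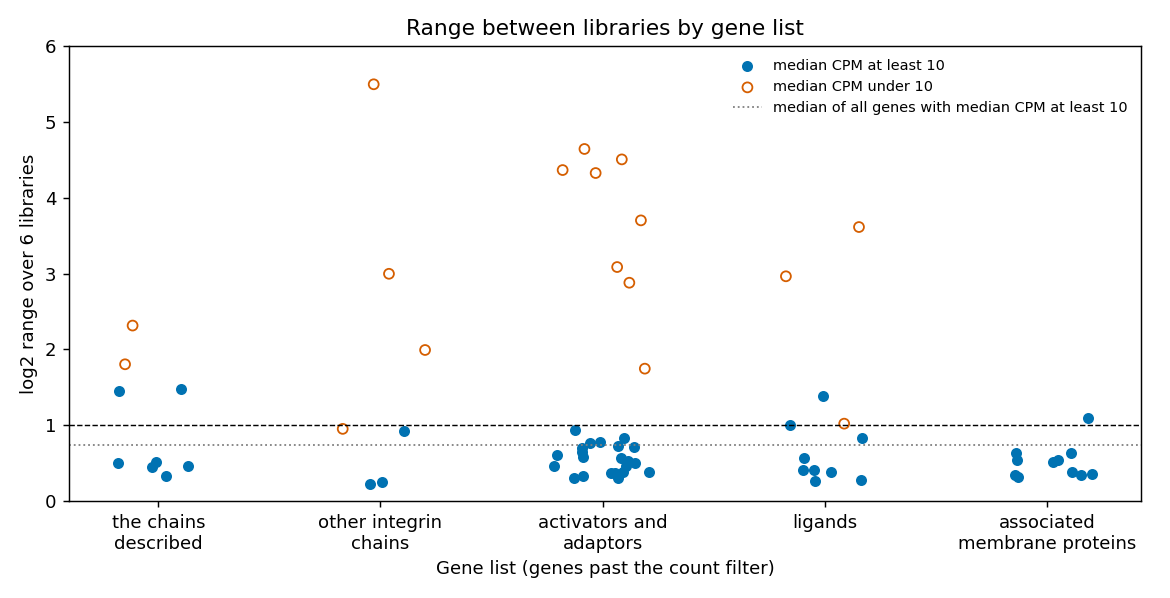
Log2 range over the 6 libraries for each gene past the filter, by list, with the dashed line at 1 and the dotted line at 0.74, the median of all genes with a median of at least 10 CPM. Filled points are genes with a median of at least 10 CPM and open points are lower genes; the ranges above 1.5 all belong to lower genes.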

How the data were processed

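Per the submitters' processing notes, the authors used HTSeq 0.11.2, STAR 2.7.1a, Trim Galore 0.6.2 and bcl2fastq 2.18.0.12 with build GRCm38; the sources used here give neither the annotation release nor the strand setting. What the authors deposited are raw counts per gene, which they did not normalize. Its 5 rows that name no gene, with 18.8 to 46.0% of reads, were left out of library sizes. IDs were matched to GENCODE M21 without versions (48435 of 48795).

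Libraries were scaled by TMM in edgeR 4.0.16 (R 4.3.3), and log2 CPM used a prior count of 2. Levels were compared between genes per kilobase of the union of exons. Spread is the log2 range, the difference of highest and lowest log2 CPM. The scripts ran under Python 3.11.15 with matplotlib 3.10.9, scipy 1.17.1, pandas 2.3.3 and numpy 2.4.6. Leaving out libraries, other gene lengths, a prior of 0.5, no filter, total counts and DESeq2 1.42.0 size factors were tried as alternatives.

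The chains, the lists and the marker genes were chosen with earlier results of these data known. Named genes were the chains, the 3 most abundant genes of each list, other integrin chains past the filter, and the 3 genes nearest in pattern to Itgax, Itgb2 and the chain of largest log2 range; others, apart from marker genes and genes overlapping a named one, are marked.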

Additional observations from a re-analysis of the deposited data

Results flagged for a closer look

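Of 17 values examined over the 6 libraries (the 10 chains, their sum, the Itgax share, the ratio to Itgb2 and 4 list sums), 2 had an end library whose gap to the next exceeded Dixon's 95% critical ratio of 0.625. Chance marks about 1 in 20 such sets. Itgam was at 2.67 CPM in CD178 against 0.439 to 1.05 CPM in the others, with a ratio of 0.728. Itgal was at 641.8 CPM in CD170 against 465.4 to 514.3 CPM in the others, with a ratio of 0.723. Under scalings tried after seeing the data, the Itgam ratio was 0.727 with DESeq2 size factors and 0.705 with total counts; the Itgal ratio was 0.709 and 0.463, so that with total counts CD170 no longer stood apart for Itgal. The cause of either was not tested.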

How the results depend on the processing

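No paired analysis was possible because the labels place none of the libraries in a group. The count of chains with a log2 range of at least 1 was 4, lay between 2 and 4 when 1 library was left out (2 without CD171), and was 1 without CD171 and CD174. Leaving out 1 library gave an Itgax share of 74.7 to 75.9%, and a CD11 to Itgb2 ratio of 0.478 to 0.50. The share was 69.6% with coding lengths, where the ratio was 0.547; it was 0.573 with longest transcripts. The length of exon bases no other gene shares was added after seeing the data and gave 75.1% and 0.491. The ratio of highest to lowest library for the summed chains was 1.29, against 1.25 with DESeq2 size factors, 1.5 with total counts, 1.11 to 1.28 when 1 library was left out, and 1.21 without CD171 and CD174. Library scaling by total counts shifted libraries against each other by up to 0.28 on the log2 scale. Ligands with a log2 range of at least 1 numbered 5, but 3 without CD171, CD174 or CD176 in turn and 2 without both CD171 and CD174; for associated membrane proteins the count of 1 became 0 without CD171 or CD174 and with total counts. Without the filter, 11 of 16 other integrin chains and 9 of 18 ligands with any counts had such a range, as more genes were examined. Past the filter these were 3 of 7 and 5 of 12, beside 50.5% of all genes. The share over all genes was not computed without the filter or with 1 library left out. Itgam, Itgb7 and Itgb8 are limited by depth.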
